A study of Mus musculus with 6 samples.

Results

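The transcripts described here belong to 36 mouse genes of amino acid metabolism and of the ATF4 stress response, chosen by their known roles in serine, one-carbon and threonine metabolism, amino acid transport and stress. Earlier results of these data were known when they were chosen. All 36 were found by symbol among 41388 gene rows of the count table, and all 36 were among the 14717 genes past the low-count filter, the smallest member count in any library being 7. Poly(A) RNA was sequenced from induced pluripotent stem cells (iPSCs) of the C57BL/6 strain, 3 lines with the genotype miR-34a-/- (the knockout) and 3 wild-type lines. Every line, of both genotypes, was reprogrammed from embryonic day 13.5 fibroblasts of littermates with retroviral Oct4, Sox2 and Klf4, came from a picked colony, and was grown on irradiated fibroblast feeders in a serum medium with added L-glutamine and non-essential amino acids. Feeder RNA can therefore be present in every library. The p-values measure the spread between these lines, and how many embryos they came from is not given. The comparison asks how loss of miR-34a, a microRNA that lowers the levels of the transcripts it pairs with, goes with the transcriptome of pluripotent cells.

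ATF4 is a transcription factor made when ribosomes read its messenger RNA differently after phosphorylation of the translation factor eIF2, which follows amino acid shortage, misfolded protein, viral RNA or lack of heme. It raises genes that import amino acids, build non-essential ones and charge transfer RNAs, so its own RNA level need not follow its activity. Serine made by Phgdh, Psat1 and Psph gives one-carbon units to folate through Shmt1 in the cytosol and Shmt2 in mitochondria, and these units serve purine, thymidylate and methionine synthesis. Mouse pluripotent cells also break down threonine through Tdh for the same purpose.

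The deleted gene cannot be checked in poly(A) libraries, where the row of the short Mir34a precursor held 0 to 1 counts in knockout and 0 to 2 counts in wild-type libraries. Totals ranged from 8432597 to 29654855 counts per library, the shallowest in each genotype being knockout replicate 3 and wild-type replicate 2. Levels are given as CPM, counts relative to TMM-scaled library sizes, with mean ± SD over n = 3 lines. Changes are on the log2 scale, positive where the knockout was higher, with an SE. Genes with a Benjamini-Hochberg adjusted p below 0.05 in edgeR's quasi-likelihood test, adjusted over the 14717 genes, are said to be called. As markers of the labelled cell type, 8 pluripotency genes were detected in every library, with summed levels of 7345 to 7789 CPM in the knockout against 5916 to 5937 CPM in the wild-type libraries. These genes include Pou5f1 (Oct4) and Sox2, which the retroviruses also carried, and RNA from the retroviral copies was not told apart here. The 18 fibroblast markers summed to 2491 to 2741 CPM in the knockout against 3007 to 3271 CPM in the wild-type libraries. Fn1, which was not called, made up most of these sums, at 2017 ± 79.0 and 2137 ± 17.3 CPM, and the median log2 fold change of the tested markers was -0.99. Of the 17 fibroblast markers tested, 13 were lower, 1 was higher and 3 were not called, and none of the 18 was at 0 in all libraries. In bulk RNA, fewer cells of a type and less RNA per cell cannot be told apart, and the part of fibroblast RNA in the member results was not tested. No member lies on the X or Y chromosome.

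Amino acid and ATF4 genes moved both ways between the genotypes. Of the 36 members, 16 were called higher in the knockout, where 26.5% of all tested genes were, and 10 were called lower, where 24% of all tested genes were. The other 10 were not called. Because earlier results of these data were known when the members were chosen, the member counts and shares describe the list and are no independent result. Over the 36 members the median log2 fold change was 0.07, beside 0.01 over all tested genes, and the median absolute value was 0.32, beside 0.27. The libraries of the genotypes did not overlap for 28 of the 36 members, where 56% of tested genes did not. The knockout was above in 16 of them and below in 12, beside 29.2% and 26.9% of tested genes. A change of at least 1.5-fold was called upward in 6 members (Atf3, Nupr1, Chac1, Asns, Slc7a11 and Slc7a1), where 13.4% of tested genes reached that, and downward in 2 (Mat2a and Amd1), where 7.19% did. Left-out libraries moved the counts to between 15 and 17 higher and between 9 and 10 lower.

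**Figure D1:**
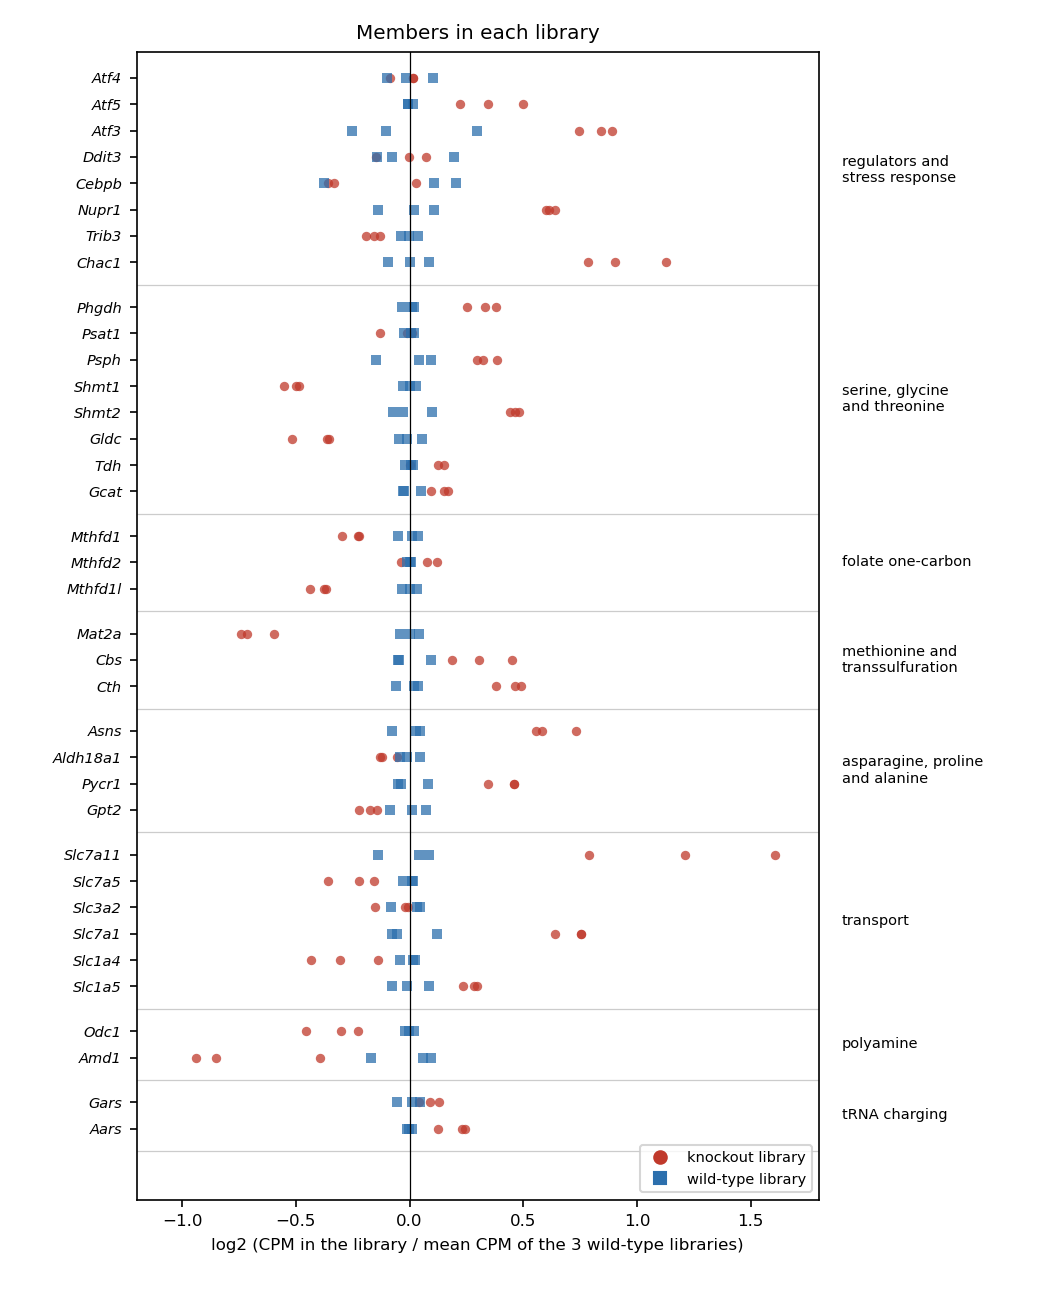
Each point is 1 library, placed by the log2 of its CPM over the mean CPM of the 3 wild-type libraries, with the 36 members in rows grouped by role. Red circles are knockout and blue squares wild-type libraries, and Chac1, Atf3, Asns and Slc7a1 show red circles to the right of all blue squares while Mat2a, Shmt1 and Amd1 show them to the left.

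Among the regulators and stress response genes, Chac1, Atf3, Nupr1 and Atf5 rose while Atf4 RNA itself was not called. Of these 8 members 4 were called higher, none lower and 4 were not called. Of all tested genes, 26.5% were called higher and 24% lower, shares that also belong beside the counts of the other role groups below. Atf4 (ENSMUSG00000042406, chromosome 15, 80255184 to 80257541, mm10) was at 395, 368 and 396 CPM in knockout replicates 1 to 3 and at 365, 388 and 421 CPM in wild-type replicates 1 to 3. These groups overlapped, with a log2 fold change of -0.02 (SE 0.06, edgeR adjusted p = 0.82). Chac1, whose enzyme degrades glutathione, stood at 16.1, 17.5 and 20.4 CPM against 8.74, 9.88 and 9.34 CPM. Every knockout library was above every wild-type library, and the gene rose by 0.94 (SE 0.11, edgeR adjusted p = 7.27e-07), a 1.92-fold change. Atf3, a transcription factor induced by ATF4 and by other stress signals, was at 12.9, 12.1 and 13.4 CPM against 6.73, 8.88 and 6.06 CPM. It rose by 0.87 (SE 0.13, edgeR adjusted p = 1.27e-05), and wild-type replicate 2 was the highest of its group. Nupr1, a small chromatin-associated stress protein, was at 18.5, 18.7 and 19.0 CPM against 11.1, 13.1 and 12.4 CPM, a log2 fold change of 0.64 (SE 0.09, edgeR adjusted p = 1.55e-05).

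The related factor Atf5, which is also controlled at translation, had 23.5, 21.1 and 19.4 CPM against 16.8, 16.5 and 16.5 CPM and rose by 0.37 (SE 0.09, edgeR adjusted p = 0.0016). The wild-type lines were close to each other and the knockout lines were spread over a wider range. Ddit3, which encodes the pro-apoptotic factor CHOP, was at 13.7 ± 1.03 CPM in the knockout against 13.9 ± 1.78 CPM in the wild-type lines (a log2 change of 0.01, SE 0.11, edgeR adjusted p = 0.93). Cebpb, a partner of ATF4 on DNA, was at 2.54 ± 0.39 and 2.93 ± 0.59 CPM (a log2 change of -0.13, SE 0.21, edgeR adjusted p = 0.63). Trib3, a pseudokinase gene and a known ATF4 target, was at 37.3, 36.7 and 35.7 CPM against 39.7, 40.8 and 41.9 CPM. Its knockout libraries all lay below the wild-type ones, yet the difference of -0.15 missed the threshold (SE 0.06, edgeR adjusted p = 0.056). After removal of library GC trends Trib3 was called lower (-0.26, adjusted p = 0.0019). Of the known ATF4 targets among these members, Chac1, Atf3, Nupr1 and Atf5 rose, while Ddit3 and Trib3 were not called.

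Atf5 shares exons with Il4i1 on the opposite strand and Ddit3 with Mars. The libraries are strand-specific per the labels, but whether the counting used strand is not stated in the labels. Neither Il4i1 (a log2 change of -0.04) nor Mars (-0.01) was called. Mars was at 281 and 284 CPM in the knockout and wild-type lines, far above Ddit3, so the Ddit3 value depends on how strand was handled. Atf5 also overlaps Nup62 on the opposite strand, which was not analysed here. Cebpb shares exons on the opposite strand with Tmem189, which was not called. Tmem189 was at 24.3 and 25.6 CPM in the knockout and wild-type lines, above Cebpb, so the same limit holds for Cebpb.

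The amino acid response element is the sequence that ATF4 binds together with a C/EBP partner. The core of that element was searched as TGATGNAA on both strands (TTNCATCA as read on the other strand, N being any base) in RefSeq promoters of GRCm38.p6, from 250 bases before to 50 bases after the start. Promoters were found for 32 of the 36 members, all but Tdh, Cth, Slc7a5 and Slc1a5. The core was present in 10 of these 32 genes (31.2%), against 297 of 10902 tested genes with a promoter in the table (2.72%) and 1304 of 32851 promoters in all (3.97%). The members were picked for known roles in this pathway, so the share describes the list and is no independent result. The 8 members with a match wholly before the start are shown, of which 7 rose and Gars was not called. This cut leaves out Slc1a4, which fell, and Trib3, which was not called, so the display is no independent result either. The match is in capitals, on the strand of the gene 5′ to 3′, with 20 flanking bases where the window allowed.
Atf3, chr1:191183416-191183463, minus strand: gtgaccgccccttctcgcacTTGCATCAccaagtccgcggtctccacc
Nupr1, chr7:126625553-126625600, minus strand: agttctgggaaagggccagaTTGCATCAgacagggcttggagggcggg
Chac1, chr2:119351029-119351076, plus strand: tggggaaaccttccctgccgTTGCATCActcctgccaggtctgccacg
Asns, chr6:7693210-7693252, minus strand: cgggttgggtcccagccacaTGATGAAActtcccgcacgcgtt
Pycr1, chr11:120643824-120643871, minus strand: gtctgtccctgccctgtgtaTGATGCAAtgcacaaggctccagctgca
Slc7a11, chr3:50443633-50443699, minus strand: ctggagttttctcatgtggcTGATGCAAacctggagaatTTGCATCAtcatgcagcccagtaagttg
Aars, chr8:111033710-111033757, plus strand: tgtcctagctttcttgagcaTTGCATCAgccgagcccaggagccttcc
Gars, chr6:55037951-55037998, plus strand: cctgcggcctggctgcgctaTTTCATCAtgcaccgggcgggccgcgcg

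Counted from the start, where -1 is the base before it, the first matched base lay at -110 in both Atf3 and Nupr1, at -193 in Chac1, at -23 in Asns, at -103 in Pycr1, at -112 in Aars and at -30 in Gars. Slc7a11 held 2 matches in opposite orientation, at -66 and -47. The remaining 2 genes, Slc1a4 and Trib3, had a match over or after the start, and Aars had a further one there. Of the 10 members with the core, 7 rose, 1 fell (Slc1a4) and 2 were not called (Gars and Trib3), with a median log2 fold change of 0.53. Of the 22 members with a promoter and no core match, 7 rose, 8 fell and 7 were not called, with a median of -0.05. Because the members were chosen with earlier results of these data known, this split describes the list and is no independent result. Outside the member list, of 287 other tested genes with the core, 28.2% were called higher and 23.7% lower, beside 26.9% and 24.5% of 10584 other tested genes without it. A match is a string of letters, and no binding was measured.

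**Figure D2:**
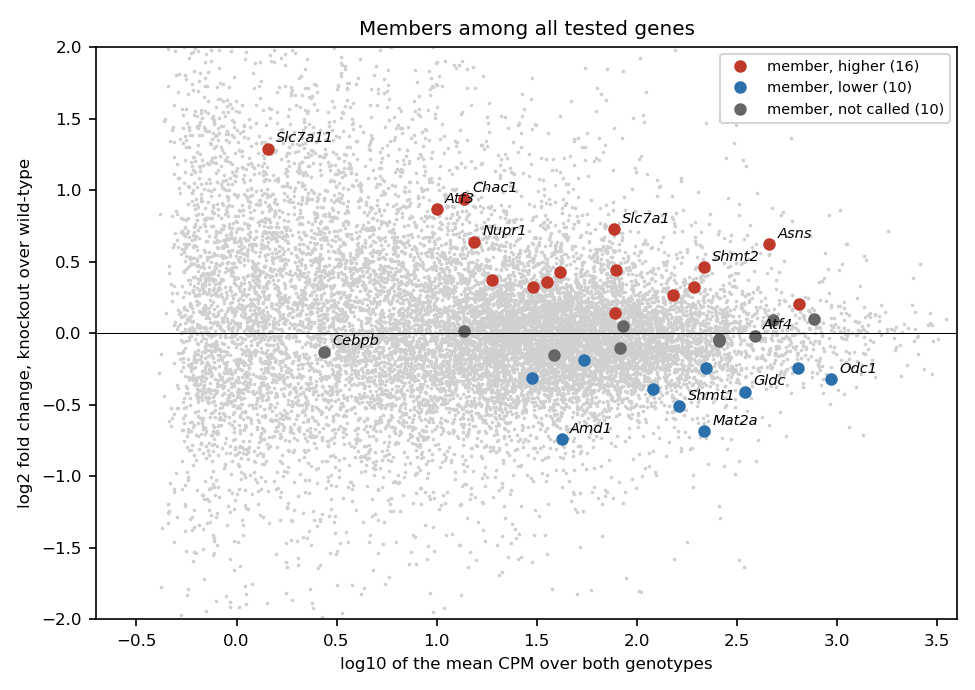
Each grey dot is 1 tested gene, by the log10 of its mean CPM over both genotypes and its log2 fold change of knockout over wild-type, and larger dots are the members coloured by their call. The vertical axis is limited to -2 and 2, beyond which 395 genes are not drawn; the members lie between -0.74 and 1.29.

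In serine synthesis the genes of the first and last steps rose and that of the middle step was not called. Phgdh, which takes 3-phosphoglycerate out of glycolysis, was at 222, 204 and 215 CPM in the knockout against 172, 173 and 167 CPM in the wild-type lines. Phgdh rose by 0.32 (SE 0.05, edgeR adjusted p = 4.17e-05) with no overlap between the groups. Psph, the phosphatase that releases serine, was at 41.3, 38.9 and 39.6 CPM against 28.6, 33.8 and 32.5 CPM and rose by 0.35 (SE 0.07, edgeR adjusted p = 0.00058). Psat1, the aminotransferase between them, was at 263, 260 and 239 CPM against 262, 265 and 257 CPM (a log2 change of -0.04, SE 0.05, edgeR adjusted p = 0.56), and its groups overlapped. Only 36.9% of the 50-base stretches of the longest Phgdh transcript were unique among annotated transcripts, because 20 other annotated genes share stretches with it. How reads mapping to several places were counted is not stated either, so the Phgdh value is less certain than that of Psat1, at 98.8%. Psph shares exons on the opposite strand with Cct6a, which was called lower (a log2 change of -0.15). Cct6a was at 496 and 550 CPM in the knockout and wild-type lines, far above Psph, so the Psph value depends on how strand was handled.

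At the step that passes the serine carbon to folate, cytosolic Shmt1 fell and mitochondrial Shmt2 rose. Shmt1, the cytosolic hydroxymethyltransferase, was at 135, 131 and 137 CPM in the knockout against 187, 195 and 191 CPM in the wild-type lines, and fell by 0.51 (SE 0.05, edgeR adjusted p = 9.35e-08). Shmt2, its mitochondrial counterpart, was at 254, 247 and 251 CPM against 178, 173 and 194 CPM and rose by 0.46 (SE 0.05, edgeR adjusted p = 9.02e-07). Both separated the genotypes without overlap. Per kilobase of exon, the log2 ratio of Shmt2 to Shmt1 was 1.23, 1.24 and 1.20 in the knockout and 0.25, 0.14 and 0.34 in the wild-type libraries, a mean difference of 0.98; this pair was chosen after its values were seen and carries no test. Exons overlap on the opposite strand here too. Smcr8 at Shmt1 was called higher by 0.49, from 69.2 CPM in the wild-type to 96.9 CPM in the knockout lines. The Shmt1 value therefore also depends on how strand was handled. The much less abundant Ndufa4l2 at Shmt2 was called higher, from 2.47 to 6.95 CPM.

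Among the glycine and threonine enzymes Gldc fell, Gcat was called higher and Tdh was not called. Gldc, the decarboxylase of the mitochondrial glycine cleavage system, was at 311, 278 and 310 CPM against 385, 395 and 413 CPM and fell by 0.41 (SE 0.06, edgeR adjusted p = 6.72e-06). Tdh, the threonine dehydrogenase for which mouse pluripotent cells are known, was at 829, 812 and 747 CPM against 748, 753 and 735 CPM. Its groups overlapped through knockout replicate 3, and it was not called (a log2 change of 0.10, SE 0.05, edgeR adjusted p = 0.16), although without that library it was (0.14, adjusted p = 0.044). Of the 50-base stretches of Tdh 85.0% were unique. Gm17232, which shares exons with Tdh on the opposite strand, was at 3.33 and 2.72 CPM in the knockout and wild-type lines and was not called. Gcat, which completes the split of threonine to glycine and acetyl-CoA, was at 82.1, 83.1 and 78.8 CPM against 72.7, 72.4 and 76.6 CPM. Its call was marginal (a log2 change of 0.14, SE 0.06, edgeR adjusted p = 0.049) and was lost in 11 of 15 alternatives. Without knockout replicate 1, knockout replicate 2, wild-type replicate 1 or wild-type replicate 2, the adjusted p of Gcat was between 0.111 and 0.155, and after removal of library GC trends its log2 fold change was 0.04. Of its 50-base stretches 53.3% were unique, the others being shared with an overlapping entry of the same symbol.

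Of 3 folate enzymes beyond that step 2 fell and 1 was not called, and none rose. Mthfd1, the trifunctional cytosolic enzyme that interconverts folate-bound one-carbon units, was at 594, 565 and 595 CPM against 700.0, 712 and 671 CPM and fell by 0.25 (SE 0.05, edgeR adjusted p = 0.00065). Mthfd1l, which releases formate in mitochondria, was at 106, 107 and 101 CPM against 137, 140 and 134 CPM and fell by 0.39 (SE 0.05, edgeR adjusted p = 5.31e-06). Neither gene showed overlap between the genotypes. Mthfd2, the mitochondrial dehydrogenase that ATF4 is known to induce, was at 88.7, 82.01 and 91.6 CPM against 84.4, 84.6 and 83.6 CPM (a log2 change of 0.05, SE 0.06, edgeR adjusted p = 0.51). Mthfd1 shares exons on the opposite strand with Gm47525, which was not analysed here.

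In the methionine branch the enzyme that makes the methyl donor fell and the enzymes of transsulfuration, which turn homocysteine into cysteine, rose. Mat2a, the S-adenosylmethionine synthetase of most dividing cells, was at 164, 160 and 177 CPM in the knockout against 260.0, 268 and 275 CPM in the wild-type lines. It fell by 0.68 (SE 0.05, edgeR adjusted p = 3.6e-09), the smallest p of all members. Mat2a shares exons on the opposite strand with Particl, which was not analysed here, and 93.5% of its 50-base stretches were unique. Cth, which releases cysteine from cystathionine, was at 92.2, 87.1 and 93.8 CPM against 68.7, 67.8 and 64.1 CPM and rose by 0.44 (SE 0.06, edgeR adjusted p = 4.91e-06). Cbs, the preceding enzyme, was at 36.7, 33.2 and 30.5 CPM against 28.6, 25.9 and 26.0 CPM and rose by 0.32 (SE 0.08, edgeR adjusted p = 0.0024). All 3 members differed without overlap, and all 3 stayed called in the 15 alternatives.

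Asparagine, proline and alanine enzymes were mixed. Asns, the asparagine synthetase and the gene in which the amino acid response element was long studied, was at 532, 541 and 600.0 CPM against 343, 369 and 374 CPM. It rose 1.54-fold (a log2 change of 0.62, SE 0.06, edgeR adjusted p = 4.35e-08), so the groups stood well apart. Per kilobase of exon, Asns lay below Atf4 in every wild-type library (log2 ratio -0.30, -0.29 and -0.39) and above it in every knockout library (0.21, 0.34 and 0.39), again as a pair picked after its values were seen. Pycr1, the last enzyme of proline synthesis, was at 48.3, 48.4 and 44.6 CPM against 34.0, 34.3 and 37.2 CPM and rose by 0.43 (SE 0.07, edgeR adjusted p = 3.14e-05). Aldh18a1, the first committed enzyme of the same route, was at 79.7 ± 2.33 and 85.5 ± 2.66 CPM (a log2 change of -0.10, SE 0.06, edgeR adjusted p = 0.13). Its groups did not overlap, and after removal of library GC trends it was called lower (-0.19, adjusted p = 0.0056). Gpt2, the mitochondrial alanine aminotransferase, was at 51.5, 49.8 and 52.6 CPM against 61.0, 54.8 and 58.4 CPM and fell by 0.19 (SE 0.06, edgeR adjusted p = 0.016). That call was lost when knockout replicate 2 (adjusted p = 0.0833) or wild-type replicate 1 (adjusted p = 0.0977) was left out.

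Transporters went both ways, with 3 of 6 higher, 2 lower and 1 not called. Slc7a1, the main carrier of arginine and lysine into most cells, was at 98.2, 90.6 and 98.1 CPM against 55.2, 63.3 and 56.1 CPM and rose 1.65-fold (a log2 change of 0.72, SE 0.07, edgeR adjusted p = 2.44e-08). Slc7a11, the cystine carrier, had the largest fold change of the members at the lowest level, 2.59, 1.97 and 1.47 CPM against 0.902, 0.876 and 0.773 CPM. These values rest on 51, 55 and 12 counts in the knockout and 22, 7 and 12 counts in the wild-type libraries, and the log2 fold change of 1.29 has an SE of 0.27 (edgeR adjusted p = 0.00055). Slc1a5, a glutamine carrier, was at 169, 162 and 167 CPM against 137, 130 and 146 CPM and rose by 0.27 (SE 0.05, edgeR adjusted p = 0.00042), or 0.18 after removal of library GC trends. Its close relative Slc1a4, which prefers alanine, serine and cysteine, went the other way, from 33.7, 32.1 and 33.4 CPM in the wild-type to 26.8, 24.5 and 30.04 CPM in the knockout libraries, and fell by 0.32 (SE 0.08, edgeR adjusted p = 0.0023).

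The leucine carrier is a dimer of Slc7a5 with the heavy chain Slc3a2, which also pairs with Slc7a11. Slc7a5 was at 216, 188 and 207 CPM against 244, 236 and 243 CPM and fell by 0.25 (SE 0.06, edgeR adjusted p = 0.0012). Slc3a2 was at 236, 260 and 262 CPM against 248, 271 and 269 CPM, overlapped, and was not called (a log2 change of -0.06, SE 0.06, edgeR adjusted p = 0.43). After removal of library GC trends its difference of -0.14 passed the threshold (adjusted p = 0.044).

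Both polyamine members, which share a pathway that uses ornithine and S-adenosylmethionine, fell. Odc1, the rate-limiting ornithine decarboxylase, was at 846, 760 and 890 CPM in the knockout against 1041, 1055 and 1028 CPM in the wild-type lines, a log2 fold change of -0.32 (SE 0.06, edgeR adjusted p = 0.00016). Amd1, which decarboxylates S-adenosylmethionine for spermidine and spermine, was at 27.3, 29.1 and 39.9 CPM against 46.6, 56.0 and 54.6 CPM. Amd1 fell by 0.74 (SE 0.14, edgeR adjusted p = 0.0025), and knockout replicate 3 lay between the other knockout lines and the wild-type lines. Only 12.4% of the 50-base stretches of Amd1 and 57.8% of those of Odc1 were unique among annotated transcripts, so both values depend on how shared reads were counted. The near copy Amd2, which did not pass the low-count filter, was at 0.139 CPM in the knockout against 0.0566 CPM in the wild-type lines.

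For tRNA charging, Aars, the alanyl-tRNA synthetase, was at 715, 708 and 659 CPM against 610.0, 603 and 600.5 CPM and rose by 0.20 (SE 0.05, edgeR adjusted p = 0.0039). Gars, the glycyl-tRNA synthetase, was at 496, 510 and 479 CPM against 480.4, 469 and 448 CPM and was not called (a log2 change of 0.09, SE 0.05, edgeR adjusted p = 0.17). After removal of library GC trends it was called higher (0.14, adjusted p = 0.029). Aars shares exons with Exosc6 on the same strand, and 77.6% of its 50-base stretches were unique.

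Per kilobase of annotated exon (RPKM, the CPM over exon length), the members spanned a wide range of levels. Tdh (304 ± 16.6 RPKM in the knockout, 285 ± 3.45 RPKM in the wild-type lines) and Odc1 (244 ± 19.3 and 306 ± 4.00 RPKM) stood at the top of the order, followed by Asns (204 ± 13.5 and 132 ± 5.97 RPKM), Atf4 (164 ± 6.65 and 166 ± 11.9 RPKM) and Gars (159 ± 4.97 and 149 ± 5.29 RPKM). In the wild-type lines Odc1 was above Tdh, and in the knockout lines Tdh was above Odc1. At the other end stood Atf3 (5.95 ± 0.29 and 3.35 ± 0.69 RPKM), Cbs, Cebpb (1.69 ± 0.26 and 1.95 ± 0.40 RPKM) and Slc7a11 (0.14 ± 0.04 and 0.061 ± 0.0049 RPKM). The stress response genes that rose, Chac1, Atf3, Nupr1 and Atf5, were all among the lower levels, between 3.35 and 10.97 RPKM. Exon lengths are unions over annotated transcripts, so genes with long exons that are seldom used come out too low.

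**Figure D3:**
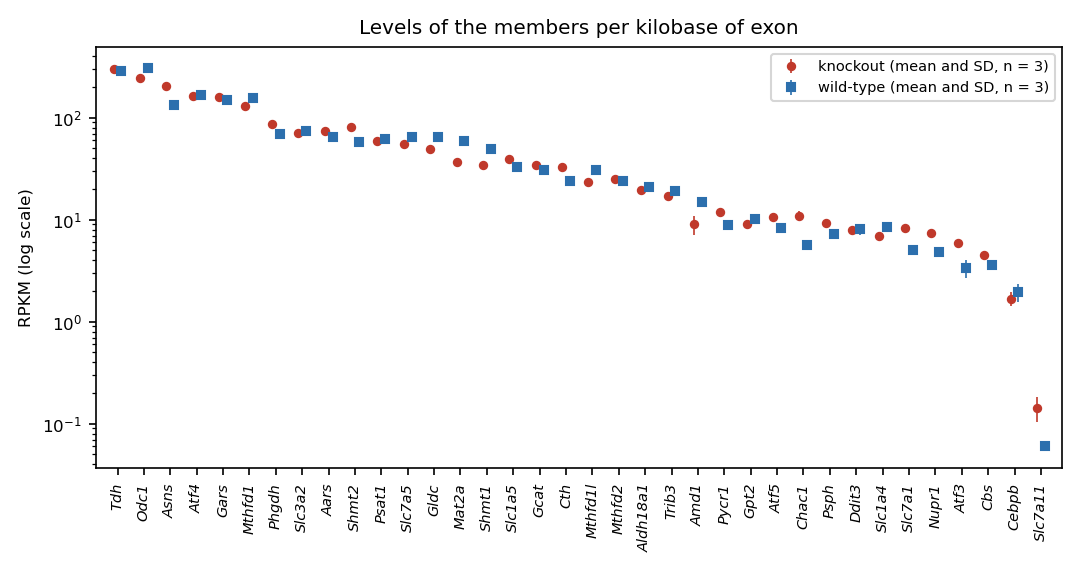
Points are means and bars SDs over the 3 lines of each genotype, in RPKM (CPM per kilobase of exon, log scale), with the members ordered by their mean over both genotypes. Levels run from about 300 RPKM for Tdh and Odc1 to under 1 RPKM for Slc7a11, and Asns, Chac1 and Slc7a1 show the knockout point above the wild-type point.

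The remainder of the pathway was read through 8 lists of other genes, which hold 126 tested genes together. Of these, 32 were higher (25.4%) and 44 lower (34.9%), with a median log2 fold change of -0.01, beside 26.5% higher and 24% lower over all tested genes. Of 10 genes around the eIF2 kinases, 2 were higher, 2 lower and 6 not called, and log2 fold changes in the list lay between -0.35 and 0.27. Eif2s1, the phosphorylated subunit of eIF2 itself, fell from 225 ± 12.8 to 178 ± 19.4 CPM (a log2 change of -0.35, edgeR adjusted p = 0.00052). After removal of library GC trends, Eif2s1, at 41.9% GC, was at -0.13 (adjusted p = 0.0431), Eif2ak2 at 0.43 and Ppp1r15a at -0.25. Eif2ak2, the eIF2 kinase that responds to viral RNA, and the phosphatase subunit Ppp1r15b were called higher by 0.27 and 0.13, and the stress-induced subunit Ppp1r15a lower by 0.16. Leaving out single libraries ended these 3 calls: 5 of the 6 did so for Eif2ak2, all but wild-type replicate 3 (adjusted p 0.0644 to 0.164), and 5 for Ppp1r15b, all but knockout replicate 2 (0.0568 to 0.16). For Ppp1r15a the calls ended without knockout replicate 1 or 2 or wild-type replicate 2 or 3 (0.0581 to 0.145). The list had 0 higher genes without knockout replicate 1 or wild-type replicate 2 and 1 without any other single library, and 1 lower gene without knockout replicate 1 or 2 or wild-type replicate 2 or 3.

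Of 19 other ATF4 targets, 7 were higher, 5 lower and 7 not called, with a median log2 fold change of 0.11. Sesn2, a sensor of leucine that p53 also induces, rose from 195 ± 1.15 to 320 ± 13.6 CPM (a log2 change of 0.71, edgeR adjusted p = 1.01e-09). Jdp2, an AP-1 family repressor, rose by 1.15, while Xpot, the exporter of transfer RNA from the nucleus, and Slc38a2, a carrier of neutral amino acids, fell by 0.35 and 0.34. After removal of library GC trends Slc38a2 was at -0.18 (adjusted p = 0.0254). The count of higher targets was 4 without knockout replicate 1, and that of lower ones 3 without knockout replicate 2 or wild-type replicate 2. Of 15 ER chaperones and genes of the other unfolded protein response arms, 3 were higher and 5 lower. Sdf2l1 and Creld2, both of the ER folding machinery, rose by 0.41 and 0.34, and Manf and Pdia4 had -0.24 and -0.18 (edgeR adjusted p = 0.0084 and 0.012). The lower count here rested on single libraries, with 2 without knockout replicate 1, 3 without knockout replicate 2 or wild-type replicate 1 and 0 without wild-type replicate 2. Without wild-type replicate 2 the adjusted p was 0.0568 for Manf and 0.0833 for Pdia4, and for Manf it was 0.0608 without knockout replicate 1.

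Among 18 other cytosolic tRNA synthetases, 2 were higher, 6 lower and 10 not called. The subunits of phenylalanyl-tRNA synthetase went opposite ways, Farsa up by 0.19 and Farsb down by 0.24 (edgeR adjusted p = 0.0051 and 0.0012), although after removal of library GC trends Farsa was not called (adjusted p = 0.0714) and Farsb was at -0.14 (adjusted p = 0.0278). Vars, the valyl enzyme, fell by 0.24. Cars, the cysteinyl enzyme, was called at 0.13 with all libraries and not without any single one but knockout replicate 3 (adjusted p 0.0639 to 0.111), so that the higher count was 1 without each of those 5 libraries.

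Of 16 further folate and nucleotide genes, 5 were higher and 4 lower. Aldh1l1, which oxidises formyl-tetrahydrofolate in the cytosol, rose from 4.25 ± 0.34 to 15.8 ± 2.13 CPM (a log2 change of 1.90, SE 0.13, edgeR adjusted p = 3.85e-10), a larger change than that of any member. Atic, of purine synthesis, fell by 0.39. The folate carrier Slc19a1 was called lower by 0.26, and that call ended without wild-type replicate 1 (adjusted p = 0.0625). The higher count was 3 without knockout replicate 1 or 2 or wild-type replicate 2 and 2 without wild-type replicate 1, and the lower count fell to 2 when knockout replicate 2 was left out and to 1 when wild-type replicate 1 was.

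Of 13 methionine cycle and polyamine genes, 7 were lower (53.8%), 2 higher and 4 not called. Azin1, which frees ornithine decarboxylase from its inhibitor, fell from 76.9 ± 0.35 to 52.3 ± 2.41 CPM (a log2 change of -0.57, edgeR adjusted p = 2.22e-07), and Sms, the spermine synthase gene, fell by 0.51. The catabolic enzymes Smox, the spermine oxidase, and Sat1, the spermidine acetyltransferase, rose by 0.62 and 0.35. Without wild-type replicate 2 the lower count was 4. Sms and Sat1 are X-linked. Other called genes of the list, named after their values were seen, were Paox, a polyamine oxidase, lower by 0.27 (edgeR adjusted p = 0.032), the antizymes Oaz1 and Oaz2, which restrain ornithine decarboxylase, lower by 0.14 and 0.27, and the spermidine synthase gene Srm, lower by 0.14. Genes of polyamine synthesis and of its restraint were thus both among the lower ones. Those of polyamine breakdown went both ways, with Paox lower and Smox and Sat1 higher. After removal of library GC trends the changes of Azin1 and Sms, whose transcripts have 40.5% and 43.3% GC, were -0.31 and -0.33 (adjusted p = 0.000135 and 0.000128).

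**Figure D4:**
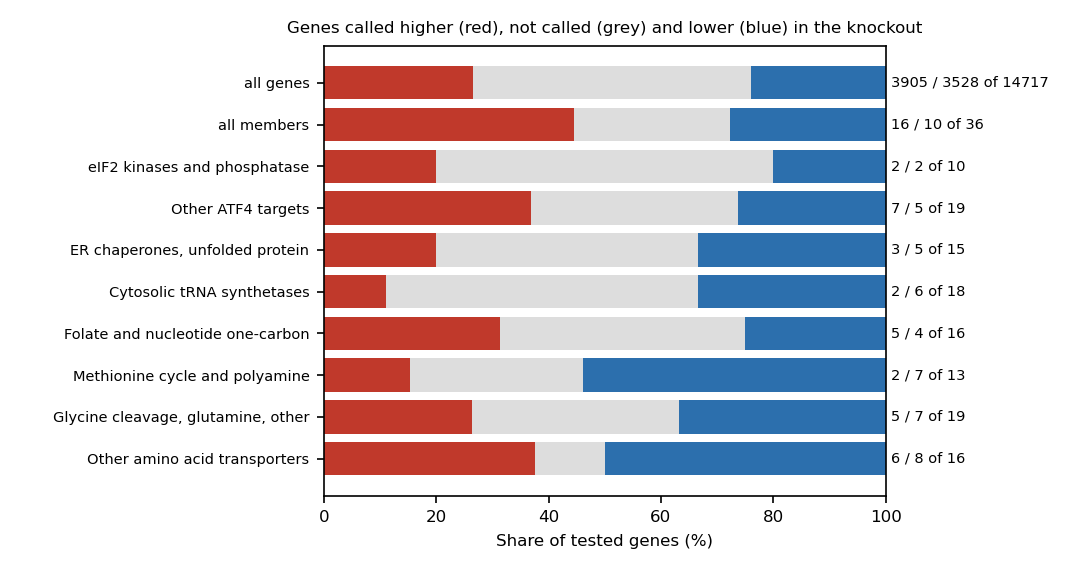
Bars give the share of tested genes called higher (red), not called (grey) and lower (blue) in the knockout, in percent, for all tested genes, the 36 members and the 8 lists of other pathway genes, with the counts higher / lower of tested at the right. Members have the longest red part at 16 of 36, and the methionine cycle and polyamine list has a blue part of 7 of 13.

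Of 19 genes of glycine cleavage, glutamine, aspartate, the urea cycle and branched-chain amino acids, 5 were higher and 7 lower. Ass1, which makes argininosuccinate from citrulline and aspartate for arginine synthesis, rose from 205 ± 1.72 to 475 ± 11.1 CPM (a log2 change of 1.21, SE 0.05, edgeR adjusted p = 4.11e-13). The cytosolic branched-chain aminotransferase Bcat1 rose by 0.55 and its mitochondrial relative Bcat2 fell by 0.48. Of 16 other amino acid transporters, 6 were higher and 8 lower, with a median absolute log2 fold change of 0.50. Slc43a1, a carrier of large neutral amino acids, fell from 30.8 ± 0.82 to 11.7 ± 1.12 CPM (a log2 change of -1.42, edgeR adjusted p = 1.05e-10), and the glutamine carrier Slc38a1 fell by 0.55. Slc7a2, an arginine carrier related to Slc7a1, rose from 2.21 ± 0.19 to 4.24 ± 0.11 CPM (a log2 change of 0.93, edgeR adjusted p = 0.00017). Slc1a1, a glutamate carrier, was at or under 0.205 CPM in each wild-type library and between 0.609 and 1.395 CPM in the knockout libraries.

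The deleted microRNA could in principle pair with member transcripts, and matches to its seed were read in their 3′ untranslated regions. The mature strand, at chr4:150068473-150068494 on the plus strand of GRCm38.p6, is shown as RefSeq gives it, with the seed (bases 2 to 8) in capitals.
mmu-miR-34a-5p: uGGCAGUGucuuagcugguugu

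Matches of 7 bases, either to bases 2 to 8 (CACTGCC) or to bases 2 to 7 followed by an A (ACTGCCA), were present in the longest annotated 3′ untranslated region of 7 of the 36 members (19.4%), beside 3400 of 13418 tested genes (25.3%). The median length of these regions was 816 bases in members and 1312 bases in all tested genes. The 7 members were Gcat, Cbs, Slc7a11 and Slc7a1, which were called higher, Slc7a5, which fell, and Slc3a2 and Aldh18a1, which were not called. Of all tested genes, 26.5% were called higher and 24% lower, and the shares called among genes with a match were not computed. The Gcat call was lost in 11 of 15 alternatives. The sites of Slc7a11, the member with the largest fold, and the longest match, that of Aldh18a1, are shown with the pairing bases in capitals.
Slc7a11, first site: tctatgaaCACTGCCtgacgcac
Slc7a11, second site: tggaaacaCACTGCCtagacaaa
Aldh18a1: aaatgctcCACTGCCAggctgtc

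The sites of Slc7a11 start at bases 2197 and 6745 of a region of 7364 bases, and that of Aldh18a1 at base 254 of 891. A match of letters is no evidence of pairing in these cells, and the member with a match that rose most, Slc7a11, is also the one with the fewest counts.

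Transcripts richer in GC tended to higher fold changes (Spearman's rho 0.28 over 14638 genes, which are not independent replicates), so each member was also read with the GC trend of every library removed. Members called higher had a median GC content of 53.6% and those called lower 51.6%, with ranges of 42.1% to 61.3% and 42.3% to 56.5%. Removing the trends moved single members by -0.19 to 0.23 on the log2 scale and their median from 0.07 to 0.04. The median of all tested genes moved from 0.01 to 0.03. Among all tested genes, fewer were then called lower, and the number called higher changed little. The shares of 26.5% higher and 24% lower therefore belong only to the fit without this removal. Member counts became 16 higher and 13 lower. Gcat left the higher genes and Gars joined them, and Trib3, Aldh18a1 and Slc3a2 joined the lower ones. Cth and Slc7a11, which are poor in GC at 43.6% and 42.1%, rose by more (0.62 and 1.52), and Amd1, at 42.3%, fell by less (-0.53).

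**Figure D5:**
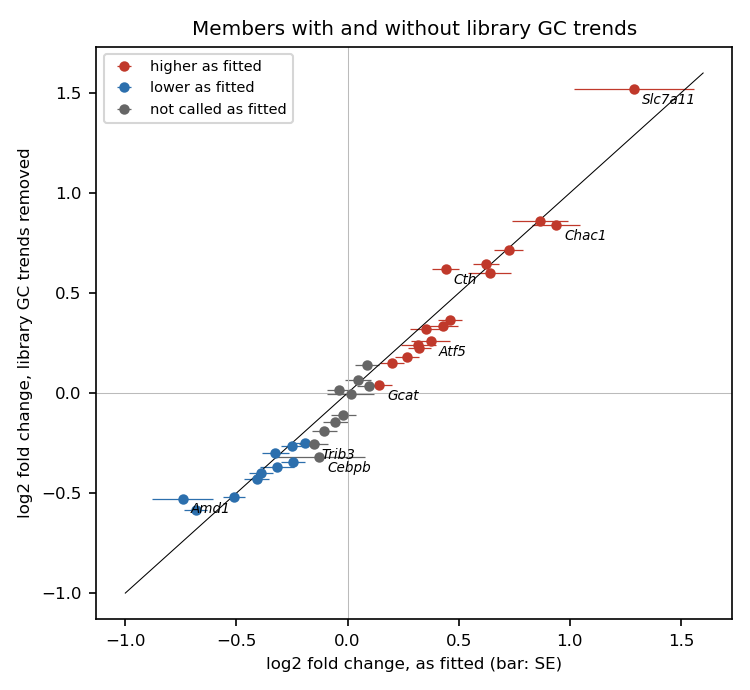
Each point is 1 member, by its log2 fold change as fitted (horizontal, bar SE) and with library GC trends removed (vertical), coloured by its call as fitted, and the diagonal marks equal values. Points lie near the diagonal, and named members are those that moved by more than 0.1.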

How the data were processed

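The values are raw read counts per gene, deposited by the authors as 1 table of 6 libraries. Per the submitters' processing notes, featureCounts 1.4.5 and TopHat2 2.0.11 were used with the build mm10. How strand and reads mapping to several places were handled is not given in the labels. A further table has 6 columns whose names match no sample label and was not used. The 902 rows of repeat families, 5.4% to 6.16% of counts, were left out. Gene names came from GENCODE M21 (40254 of 41388 rows matched), promoters and the microRNA from RefSeq GRCm38.p6.

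Counts were filtered (filterByExpr), scaled (TMM) and tested with edgeR 4.0.16 in R 4.3.3 (quasi-likelihood F test, Benjamini-Hochberg), with SE taken as the log2 fold change over the square root of F. Fold changes are edgeR's with its default prior, and a prior count of 2 was used only for log2 CPM in the GC trends and the check of replicate numbers. DESeq2 1.42.0 and limma 3.58.1 (voom) were alternatives, among 15 that also changed scaling, filter, GC trends, the replicate block and single libraries. The code was checked on simulated data. The members and lists were chosen with earlier results of these data known. All members are described. In each list up to 4 genes are named, those with the smallest p, 2 higher and 2 lower; some of these are not reported here. Totals of 8432597 to 29654855 counts limit the low genes most. Libraries of 1 genotype differed beyond sampling noise (chi-square per degree of freedom 2.25 to 20), so all 6 were kept as separate samples.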

Additional observations from a re-analysis of the deposited data

How the results depend on the processing

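Over 15 alternatives, members called numbered 24 to 30, 24 of the 26 calls held in each (not Gcat and Gpt2), and 4 of the 10 other members were called in none. Genes with near-zero differences changed sign, with no call where they did: Ddit3 was at -0.008 with DESeq2 and with no count filter, -0.003 with library GC trends removed, and -0.065 to 0.088 where single libraries were left out. Atf4 was at -0.069 to 0.031 where single libraries were left out, and Psat1 at 0.017 with GC trends removed. The labels speak of pairs of lines but do not tie numbers to them, and same-numbered libraries deviated together with correlations of 0.231, 0.00486 and 0.231 over 10314 genes, so the numbers were not taken as pairs; knockout replicates 1 and 3 correlated best with their own numbers and replicate 2 did not. With the replicate block 26 members were called (16 higher, 10 lower), Ddit3 was at -0.022, genes called higher numbered 4055 and genes called lower 3779. With the block and GC trends removed together Ddit3 was at -0.041, Psat1 at 0.014, and Atf4 was called lower (-0.11, adjusted p = 0.0277). Counts in the small pathway lists moved by over 1.5 times in places: DESeq2 called 4 higher and 3 lower of the other ATF4 targets, 2 higher folate genes and 0 higher and 1 lower eIF2 gene, and with GC trends removed 2 ER genes were lower, and 0 tRNA synthetases higher and 3 lower, against 4 higher and 5 lower with the block added. The causes of these changes were not tested. Depth limits Slc7a11, Slc1a1 and Cebpb most.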

Other observations

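Of the cell markers used to check the labels, 7 of the 8 pluripotency genes were called higher in the knockout and 1, Utf1, lower (-0.23, edgeR adjusted p = 0.0025). The 7 include Pou5f1 and Sox2, which the retroviruses also carried. Tdgf1, a co-receptor of Nodal, rose by 0.56 and Esrrb, a nuclear receptor of naive pluripotency, by 0.45. Among the fibroblast markers the contractile genes Tagln and Acta2 fell by 1.81 and 1.81, from 156 to 172 CPM and 148 to 182 CPM in the wild-type libraries to 45.7 to 47.4 CPM and 44.9 to 46.9 CPM in the knockout libraries. S100a4, a calcium-binding protein gene, went the other way, from 21.4 to 26.8 CPM up to 67.8 to 74.6 CPM. Both lists move between the same libraries as the amino acid genes, and their part in those results was not tested.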
